A study of Mus musculus with 4 samples.

Results

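The genes that make, load, recover or break down the inhibitory transmitters GABA and glycine were followed through single nuclei of the mouse brain at postnatal day 14. They are Gad1, Gad2, Slc32a1, Slc6a5, Slc6a9, Slc6a11, Slc6a13 and Abat, chosen by symbol for what they do, 8 of the 32286 features counted in the files. Each symbol matched 1 feature. The nuclei came from snap-frozen hemispheres of C57BL/6 mice, in 2 libraries labelled as knockouts (KO, Slc17a6-Cre with Ago2 flox/flox) and 2 libraries labelled as wild type (WT, Slc17a6-Cre with Ago2 wt/wt). Both groups carried Slc17a6-Cre, a Cre driver active in cells that switch on Slc17a6, the gene of the vesicular glutamate transporter VGLUT2, and most inhibitory neurons are not among these. The study asks what Ago2 does in such glutamatergic neurons, and here the question was how the inhibitory transmitter genes are spread over the cell classes and whether their levels differed between genotypes.

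GABA is made from glutamate by the glutamate decarboxylases GAD67 and GAD65, the products of Gad1 and Gad2. GABA and glycine share 1 vesicular transporter, VIAAT, the product of Slc32a1, and glycinergic neurons also take glycine up from outside through GlyT2, the product of Slc6a5. Released transmitter is cleared largely by other cells: GlyT1 (Slc6a9) carries glycine and GAT3 (Slc6a11) carries GABA into astrocytes, GAT2 (Slc6a13) carries GABA and taurine in the coverings of the brain and in peripheral organs, and GABA transaminase (Abat) starts the breakdown of GABA in mitochondria.

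KO replicates 1 and 2 held 10845009 and 11439733 UMIs (molecules counted once each through their molecular identifier), against 13107920 and 29317266 UMIs in WT replicates 1 and 2. After filtering, 3218 and 3164 KO nuclei and 3227 and 5820 WT nuclei were kept, 15429 in all, with median depths of 2315 and 2377.5 UMIs in KO and 2415 and 3093.5 UMIs in WT. WT replicate 1 stood apart in lost nuclei: the mitochondrial maximum removed 17.8% of its barcodes, against 5.64% to 8.78% in the other libraries. Pairs of libraries shared 3 to 10 barcodes. Clustering gave 19 marker-named classes, called by the plain name for "-like" throughout, with the 8 genes left out of both the clustering and the markers. The design text speaks of cortex, whereas cerebellar granule neurons alone were 26.7% of the kept nuclei. Ago2 itself measured 88.8 and 92.4 CPM (counts scaled to the total UMIs of the summed nuclei) over all nuclei of KO libraries and 73.7 and 82.3 CPM in WT libraries. In the thalamic or midbrain Slc17a6 class, only 92 nuclei, it measured 39.1 and 43.3 CPM in KO and 55.2 and 75.5 CPM in WT. An unnamed neuron cluster, cluster 1, held 1608 nuclei with Slc17a6 at 73.1 CPM. There Ago2 measured 70.7 and 82.5 CPM in KO and 67.3 and 75.8 CPM in WT, with overlap. Counts from the 3′ end check no deletion whose exon is not given in the sources used here, so the genotype labels could not be tested with them.

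The 8 genes fell into 3 patterns over the classes. Gad1, Gad2 and Slc32a1 were highest in inhibitory neurons, Slc6a5 in a small part of them and in an unnamed neuron cluster, and the other transporters reached their highest levels outside neurons, with Slc6a9 and Slc6a11 in astrocytes and Slc6a13 in fibroblasts. Abat crossed these borders and was high both in inhibitory neurons and in astrocytes. All levels by class are CPM of the UMIs summed over a class in each library, given as mean ± SD over the 4 libraries and as a description with no test. Intervals cover counting error only, and levels of different genes are not compared, since their transcripts may be captured with different efficiency.

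**Figure D1:**
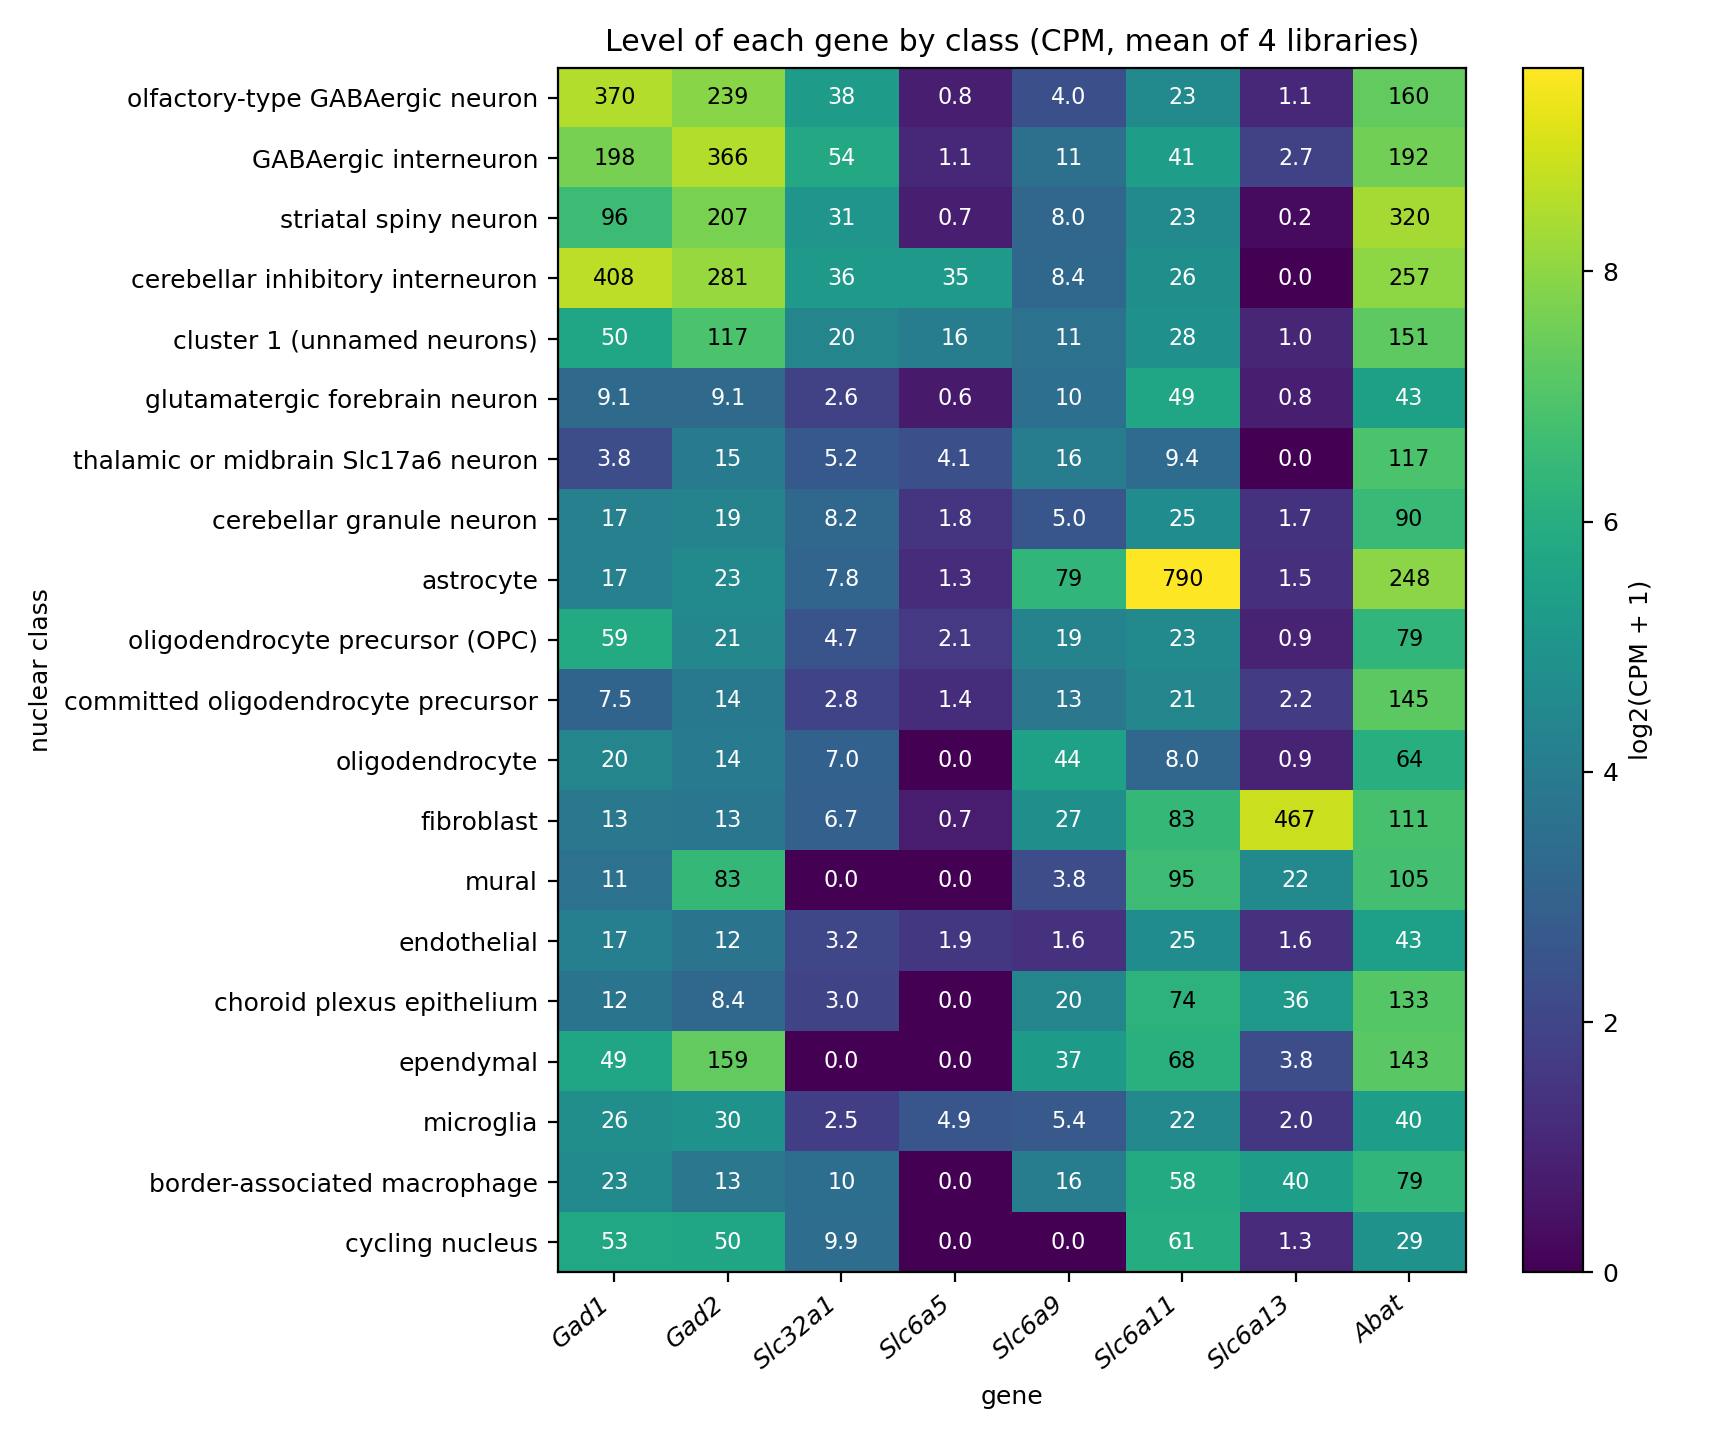
Mean level over the 4 libraries (CPM, printed in each cell, coloured by log2(CPM + 1)) of the 8 genes (columns) in 19 named classes and the unnamed cluster 1 (rows). Gad1, Gad2 and Slc32a1 light up the 4 inhibitory classes at the top, Slc6a11 stands out in astrocytes at 790 CPM and Slc6a13 in fibroblasts at 467 CPM; cells in the last rows rest on few UMIs.

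The promoters of the genes for GABA synthesis and loading are shown because these genes share a class pattern. Each window is the 250 bases before the RefSeq transcription start on build GRCm38.p6, plus strand, printed 5′ to 3′. The Gad1 window is chr2:70561879-70562128, the Gad2 window is chr2:22622077-22622326 and the Slc32a1 window is chr2:158610508-158610757. In the Slc32a1 window, capitals mark the 34 bases that lie outside both Slc32a1 and the non-coding gene Gm14204, which runs away from it on the minus strand.
Gad1: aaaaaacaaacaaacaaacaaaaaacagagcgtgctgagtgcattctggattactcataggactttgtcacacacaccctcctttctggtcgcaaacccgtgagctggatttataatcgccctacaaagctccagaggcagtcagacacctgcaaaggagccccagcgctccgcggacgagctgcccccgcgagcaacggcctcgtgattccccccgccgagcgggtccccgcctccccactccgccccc
Gad2: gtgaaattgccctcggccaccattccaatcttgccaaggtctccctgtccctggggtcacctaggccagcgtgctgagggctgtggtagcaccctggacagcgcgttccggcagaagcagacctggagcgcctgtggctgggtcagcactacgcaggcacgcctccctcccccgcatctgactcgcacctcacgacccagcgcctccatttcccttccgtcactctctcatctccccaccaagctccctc
Slc32a1: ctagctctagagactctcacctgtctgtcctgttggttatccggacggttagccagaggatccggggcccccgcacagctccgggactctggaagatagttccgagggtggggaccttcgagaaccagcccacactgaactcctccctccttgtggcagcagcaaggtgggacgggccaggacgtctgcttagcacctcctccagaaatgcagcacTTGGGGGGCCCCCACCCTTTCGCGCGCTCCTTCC
Their share of G and C was 58.0%, 64.0% and 62.4%, against a median of 52.4% (quartiles 45.2% and 61.2%) over 32851 promoter windows of the same length, so the Gad1 window lay between the quartiles. The letters TAATTA, a core read by homeodomain factors such as the Dlx proteins of GABAergic neurons, and CAGCTG, an E-box read by basic helix-loop-helix factors, were searched in every window (both read the same on either strand, and they do not overlap each other). TAATTA was in none of the 12 windows found for 7 of the 8 genes, against 4.84% of all windows, and CAGCTG was in 1 of them, an Slc6a13 window, against 4271 of the 32851 windows. The search says only which letters these windows hold. Abat had no window in the table.

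Gad1 (chr2:70553072-70602014, GRCm38, plus strand) was highest in 2 inhibitory classes. In cerebellar inhibitory interneurons it measured 426 and 419 CPM in KO libraries and 381 and 408 CPM in WT libraries. In olfactory-type GABAergic neurons it measured 406 and 320.5 CPM in KO and 395 and 358 CPM in WT. The ranges of the 2 classes overlapped, so their order (408 ± 19.8 and 370 ± 38.7 CPM, SD, n = 4) is within the spread between libraries. GABAergic interneurons followed at 198 ± 49.2 CPM and striatal spiny neurons, the projection neurons of the striatum, at 96.4 ± 3.47 CPM. Olfactory-type neurons, 6.25% of the kept nuclei, held 33.0% of all Gad1 UMIs.

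Outside neurons, the named glial class with the most Gad1 UMIs was oligodendrocyte precursors (OPCs), the dividing cells that give rise to oligodendrocytes. They held 107 Gad1 UMIs, with 102 and 48.8 CPM in KO libraries and 40.6 and 43.1 CPM in WT libraries. Cycling nuclei (52.6 ± 41.1 CPM, 17 UMIs) and ependymal cells (49.3 ± 98.6 CPM, 2 UMIs) were not below OPCs in every library. Microglia had 26.1 ± 19.2 CPM, astrocytes 17.1 ± 1.54 CPM, oligodendrocytes 19.7 ± 16.2 CPM and committed precursors, the next stage of the same lineage, 7.55 ± 5.79 CPM. Glutamatergic forebrain neurons measured 9.12 ± 3.52 CPM. After every nucleus was thinned to 1000 UMIs, 4.77% of OPC nuclei had a Gad1 UMI, against 2.31% of astrocytes, 1.36% of microglia, 1.38% of oligodendrocytes and 0.955% of committed precursors (13.5% of OPCs and 3.55% of microglia unthinned, at medians of 2477 and 1391.5 UMIs). The thinned share was higher in cycling nuclei (6.73%, 7 of 104) and in the shallow unnamed cluster 3 (7.44%, 25 of 336), and 4.84% in choroid plexus (3 of 62), so OPCs were not set apart from these.

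Gad2 (chr2:22622205-22693874, plus strand) had another leading class. It was highest in GABAergic interneurons, with 481 and 344 CPM in KO libraries and 281 and 358 CPM in WT libraries. Cerebellar inhibitory interneurons had 358 and 205 CPM in KO and 305 and 257 CPM in WT, olfactory-type neurons averaged 239 ± 35.0 CPM and striatal spiny neurons 207 ± 36.0 CPM. Neighbouring classes in this order overlapped between libraries. In OPCs Gad2 was low, with 20.4 and 19.5 CPM in KO and 25.4 and 18.0 CPM in WT, close to the 22.9 ± 9.32 CPM of astrocytes and the 29.8 ± 17.9 CPM of microglia. After thinning, 25.7% of GABAergic interneurons had a Gad2 UMI (68.3% unthinned, at a median of 5186 UMIs), against 2.37% of microglia.

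The balance of the decarboxylase genes split the inhibitory classes. Gad1 gave 60.9% of the summed Gad1 and Gad2 UMIs in olfactory-type neurons (exact binomial 95% interval 58.6 to 63.1%) and 59.6% in cerebellar inhibitory interneurons (56.1 to 63.0%). It gave 34.3% in GABAergic interneurons (31.3 to 37.4%) and 32.3% in striatal spiny neurons (29.0 to 35.7%). By library the olfactory-type share was 60.1% and 61.7% in KO and 59.7% and 61.9% in WT, and the spiny neuron share was 28.1% and 31.4% in KO and 34.3% and 34.3% in WT, without overlap and with no test. No library put a class of the first pair below a class of the second pair. A finer clustering (Leiden resolution 2) held a cluster at 70.1% from 821 Gad1 and 351 Gad2 UMIs, 68.9 to 72.5% by library. It held another at 44.9% from 328 Gad1 and 402 Gad2 UMIs, 42.0 to 46.2% by library. A class share may therefore average unlike nuclei, which its interval does not show. In OPCs the share was 72.8% (64.8 to 79.8%) from 107 Gad1 and 40 Gad2 UMIs. The shares compare classes with each other and not the amount of either mRNA.

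**Figure D2:**
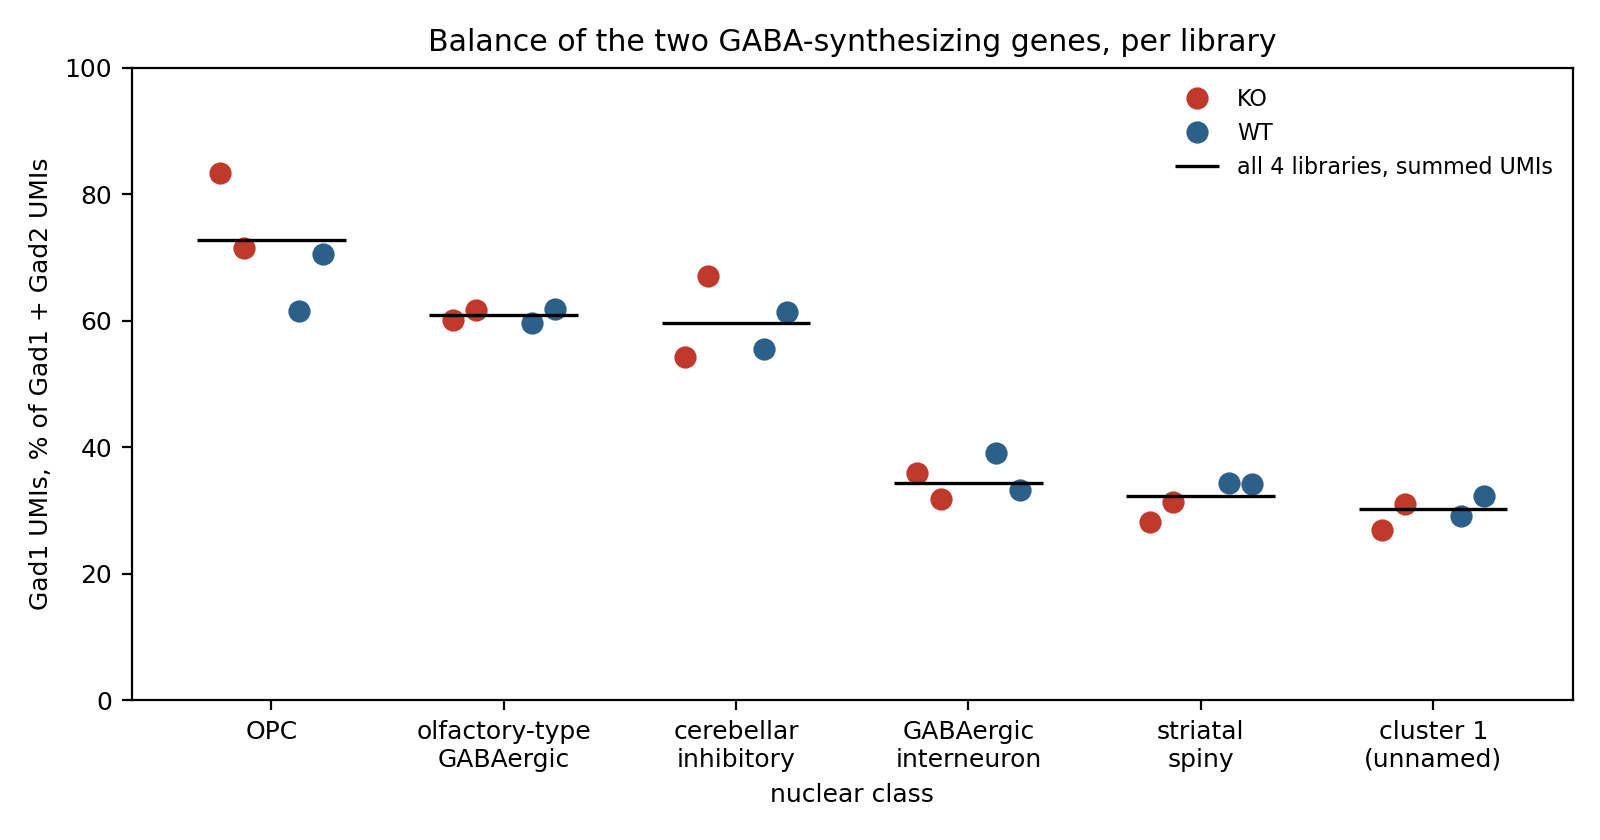
Gad1 UMIs as a percent of Gad1 plus Gad2 UMIs (y axis) in 6 classes (x axis), with 1 point per library, KO left of WT, and a black line for the 4 libraries summed. Olfactory-type and cerebellar inhibitory nuclei sit near 60%, and GABAergic interneurons, spiny neurons and cluster 1 near 30 to 35%; KO and WT points overlap in those classes other than spiny neurons, where KO (28.1% and 31.4%) lies below WT (34.3% in both), and OPCs, where KO lies above WT.

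Nuclei with one decarboxylase often had the other. Among olfactory-type nuclei with a Gad1 UMI, 45.1% also had a Gad2 UMI (246 of 546), against 36.1% of those without Gad1, at medians of 3374.5 and 2293 UMIs. Among GABAergic interneurons the shares were 77.1% and 58.7%, at medians of 6087 and 4912 UMIs. Depth differed in both contrasts, and its part in them was not tested.

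Slc32a1 (chr2:158610767-158615748, plus strand), the vesicular loader, followed the decarboxylases at few UMIs. It had 751 UMIs in all kept nuclei. GABAergic interneurons were highest with 68.7 and 38.8 CPM in KO libraries and 76.2 and 34.2 CPM in WT libraries, followed by olfactory-type neurons at 37.9 ± 6.21 CPM, cerebellar inhibitory interneurons at 36.1 ± 9.89 CPM and spiny neurons at 31.2 ± 3.63 CPM. These 4 ranges overlapped, and the fifth named class, border-associated macrophages, rested on 2 UMIs. Slc32a1 UMIs were in 6.67% of thinned GABAergic interneurons (23.0% unthinned), against 0.339% of microglia. Glutamatergic forebrain neurons measured 2.64 ± 1.94 CPM. Of 270 inhibitory nuclei with an Slc32a1 UMI, 81.5% also had Gad1 or Gad2 (interval 76.3 to 85.9%), against 70.6% of those without it, at medians of 4086 and 3280 UMIs. Gm14205 overlaps Slc32a1 and Gad1os overlaps Gad1 on the opposite strand, and the use of strand in counting is not given in the sources used here, so their reads cannot be told apart from those of the 2 genes.

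Slc6a5 (chr7:49910146-49963856, plus strand), the marker transporter of glycinergic neurons, was rare: 284 UMIs in 181 of 15429 nuclei. Among the named classes it was highest in cerebellar inhibitory interneurons, with 40.8 and 36.3 CPM in KO libraries and 25.1 and 37.7 CPM in WT libraries, from 42 UMIs. Every library had this class at 25.1 CPM or more, and the next, microglia at 4.94 ± 3.77 CPM, rested on 3 UMIs. In striatal spiny, olfactory-type and GABAergic interneuron nuclei together Slc6a5 had 10 UMIs. In oligodendrocytes it had 0 UMIs in the 435 thinned nuclei, which allows a share of nuclei with a UMI of up to 0.690% at that depth and limits no expression below it, whereas 4.09% of thinned cerebellar inhibitory nuclei had 1 (8.42% unthinned). The cerebellar cortex is known for Golgi cells that release both transmitters, and of 32 cerebellar inhibitory nuclei with an Slc6a5 UMI, 28 also had Gad1 or Gad2, 87.5% (interval 71.0 to 96.5%). Of the 348 without Slc6a5 it was 74.7%, a value inside that interval. Slc32a1 was seen in 2 of the 32.

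Most Slc6a5 UMIs lay outside the named classes. Cluster 1, 1608 deeply counted nuclei led by the glycine receptor gene Glra1 and by Baiap3, was left unnamed, because only 1 marker of its best-scoring list, that of hindbrain inhibitory neurons, was detected. It held 183 of the 284 Slc6a5 UMIs, 64.4%, with 20.1% of all UMIs. It also held 31.4% of the Gad2 UMIs, 29.2% of the Slc32a1 UMIs and 16.7% of the Gad1 UMIs. Gad2 measured 137 and 112 CPM there in KO libraries and 115 and 105 CPM in WT libraries, and Gad1 50.6 and 50.3 CPM in KO and 47.4 and 50.3 CPM in WT. Its Gad1 share, 30.3%, was within the interval of striatal spiny neurons.

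Divided once more, after its values had been seen, cluster 1 gave 20 sub-clusters, described with no test. Sub-cluster 5, 39 nuclei led by the inhibitory neuron factors Pax2 and Pax8, had Slc6a5 at 128 CPM over the 4 libraries together (45 UMIs), Gad1 at 114 CPM and Gad2 at 82.6 CPM, with the vesicular glutamate transporter gene Slc17a6 at 2.85 CPM. By library its Slc6a5 level was 182 and 147 CPM in KO and 194 and 63.4 CPM in WT, from 4 to 13 nuclei each. Sub-cluster 3, 218 nuclei with Glra1 and the fast-release sensor gene Syt2 among its leading genes, held 93 Slc6a5 UMIs (45.1 and 57.0 CPM in KO, 31.3 and 48.3 CPM in WT) beside Slc17a6 at 64.7 CPM. Gad2 was highest in sub-cluster 16 (353 CPM), in sub-cluster 12 (314 CPM), led by Pax5 and Otx2 transcripts, and in sub-cluster 15 (246 CPM), and all 3 had Slc6a5 at 3.72 CPM or below. The sub-clusters richest in Slc17a6 (1, 6, 7, 11 and 20, 144 to 182 CPM) had Gad2 at 16.5 CPM or less. Other large sub-clusters held both genes. Sub-cluster 8 (253 nuclei) had Gad2 at 87.1 CPM and Slc17a6 at 90.5 CPM, and sub-cluster 4 (204 nuclei) 165 and 78.3 CPM. Whether single nuclei held both was not tested. In cluster 1 as a whole, 60 of 95 nuclei with an Slc6a5 UMI also had Gad1 or Gad2, 63.2% (interval 52.6 to 72.8%), against 40.4% of those without, at medians of 8334 and 6083 UMIs, and the part of depth was not tested.

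**Figure D3:**
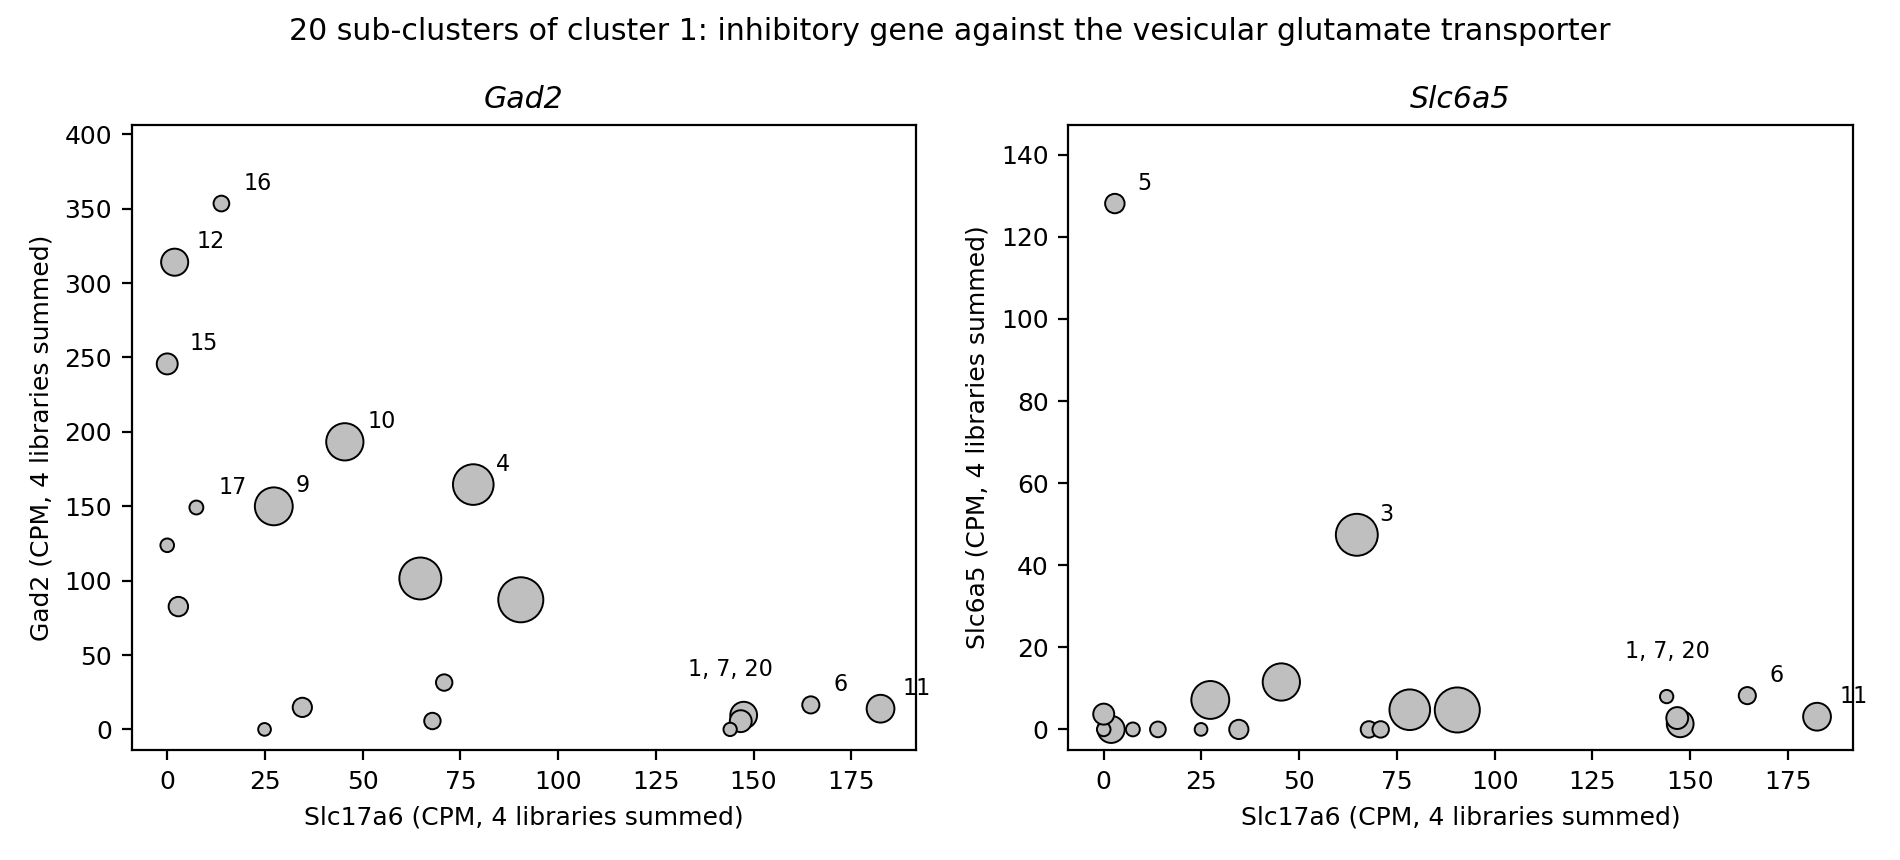
Gad2 (left) and Slc6a5 (right) against Slc17a6 in the 20 sub-clusters of cluster 1, in CPM over the 4 libraries summed; point area grows with the number of nuclei, and numbers name sub-clusters. Sub-clusters 16, 12 and 15 are high for Gad2 with little Slc17a6, the 5 sub-clusters at 144 CPM of Slc17a6 or more lie near 0 for Gad2, and sub-clusters 5 and 3 stand out for Slc6a5.

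Slc6a9 (chr4:117834506-117875198, plus strand), the glial glycine transporter, was highest in astrocytes and next in oligodendrocytes. Astrocytes measured 77.7 and 76.6 CPM in KO libraries and 90.2 and 72.6 CPM in WT libraries. Oligodendrocytes measured 47.8 and 45.4 CPM in KO and 40.7 and 44.1 CPM in WT, below astrocytes in every library. The 2 classes held 33.5% and 7.98% of its 877 UMIs, while cluster 1 held 14.4% and glutamatergic forebrain neurons 13.9%, at lower levels (11.0 ± 1.03 and 10.4 ± 1.62 CPM) but with 20.1% and 22.0% of all UMIs. OPCs (19.0 ± 8.47 CPM) and committed precursors (13.02 ± 10.3 CPM) were lower than oligodendrocytes in every library, and inhibitory neurons as a whole had 7.13 ± 1.76 CPM. A UMI was found in 6.99% of thinned astrocytes and 4.14% of thinned oligodendrocytes (15.1% and 14.3% unthinned), against 0.339% of microglia. Ccdc24, B4galt2 and Gm17114 overlap Slc6a9 on the opposite strand, with the same limit on strand as above.

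Slc6a11 (chr6:114131241-114249952, plus strand), the astrocytic GABA transporter, was found mainly in astrocytes. Astrocytes measured 985 and 800.4 CPM in KO libraries and 784 and 590.5 CPM in WT libraries, and held 62.6% of 4507 UMIs in 9.51% of nuclei. The next class, mural cells, averaged 94.8 ± 100.4 CPM on 13 UMIs. Glutamatergic forebrain neurons had 49.1 ± 6.99 CPM and inhibitory neurons 26.7 ± 2.92 CPM. In thinned nuclei 42.8% of astrocytes had an Slc6a11 UMI, against 2.03% of microglia and 1.38% of oligodendrocytes. Of 222 astrocytes with an Slc6a9 UMI, 77.0% also had Slc6a11 (interval 70.9 to 82.4%), against 57.2% of those without, at medians of 2563 and 2094 UMIs.

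The 2 astrocyte clusters differed in both transporters. Cluster 13, 746 nuclei led by Slc6a11 with Pax3 and Slc7a10, had Slc6a11 at 1228 and 1096 CPM in KO libraries and 1109 and 751 CPM in WT libraries. Cluster 14, 722 nuclei led by Slc1a2 and Dio2, had 569 and 464 CPM in KO and 447 and 435 CPM in WT. Slc6a9 followed the same order, at 104 and 114 CPM in KO and 143 and 130.0 CPM in WT in cluster 13, and 33.2 and 34.0 CPM in KO and 35.4 and 17.0 CPM in WT in cluster 14. Cluster 13 was above cluster 14 in all 4 libraries for both genes.

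Slc6a13 (chr6:121300227-121337733, plus strand), the GABA and taurine transporter, was close to a single-class gene. Fibroblasts, the collagen-making cells of the meninges and vessel walls, measured 603 and 349 CPM in KO libraries and 388 and 525.5 CPM in WT libraries, and held 666 of 763 UMIs, 87.3%, in 2.57% of nuclei. Border-associated macrophages came next by mean level with 7 UMIs, all in 1 of 76 nuclei. Choroid plexus epithelium had 15 UMIs in 6 of 62 nuclei, and mural cells 6 UMIs in 6 of 79. In astrocytes the gene had 5 UMIs and in cerebellar inhibitory interneurons 0. A UMI was found in 35.1% of thinned fibroblasts (59.1% unthinned) and in 0 of 295 thinned microglia, which allows a share with a UMI of up to 1.02% at that depth; unthinned, 1 of 366 microglia had one.

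Within fibroblasts the gene belonged to 1 of 2 clusters. Cluster 12, 310 nuclei led by Ranbp3l and Slc6a13 with Aldh1a2 and Ptgds, measured 710.2 and 508 CPM in KO libraries and 510.1 and 647 CPM in WT libraries. Cluster 21, 86 nuclei led by Slc47a1 and Tbx15, measured 24.0 and 32.9 CPM in KO and 10.8 and 0 CPM in WT, from 6 UMIs. The promoter window that holds CAGCTG (chr6:121300490-121300739, plus strand, 250 bases before 1 of 3 annotated starts) is shown with the motif in capitals, 129 bases before the start.
Slc6a13: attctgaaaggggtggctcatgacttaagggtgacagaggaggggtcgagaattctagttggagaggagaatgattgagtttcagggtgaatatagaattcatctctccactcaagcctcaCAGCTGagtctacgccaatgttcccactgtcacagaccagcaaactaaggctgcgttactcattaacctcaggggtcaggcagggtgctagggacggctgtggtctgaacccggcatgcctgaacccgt

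**Figure D4:**
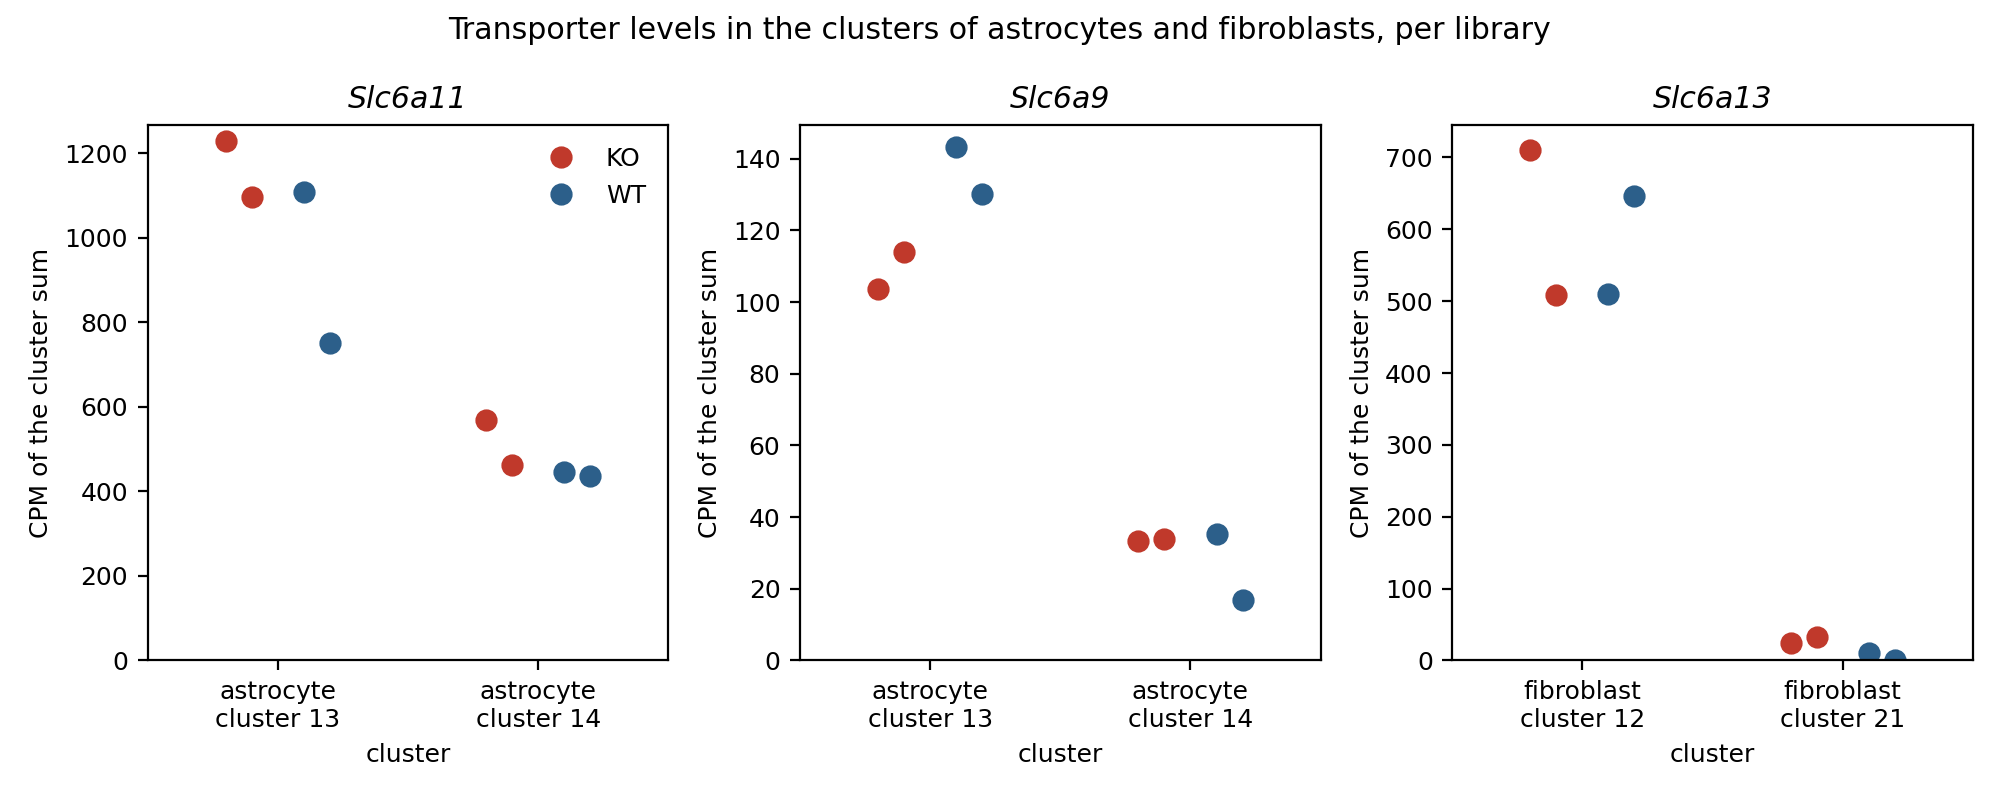
Levels (CPM of the cluster sum, y axes from 0) of Slc6a11 and Slc6a9 in astrocyte clusters 13 and 14 and of Slc6a13 in fibroblast clusters 12 and 21, with 1 point per library, KO left of WT. Cluster 13 lies above cluster 14 for both astrocytic genes, and cluster 12 holds nearly all Slc6a13.

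Abat (chr16:8513429-8621568, plus strand), the gene of GABA breakdown, had a UMI in 27.3% of nuclei and was found in neurons and glia alike. Striatal spiny neurons led with 301 and 365 CPM in KO libraries and 293 and 321 CPM in WT libraries. Cerebellar inhibitory interneurons (257 ± 45.9 CPM), astrocytes (248 ± 26.2 CPM), GABAergic interneurons (192 ± 19.9 CPM) and olfactory-type neurons (160 ± 28.1 CPM) followed, with overlapping neighbours. Glutamatergic forebrain neurons measured 54.5 and 47.4 CPM in KO and 31.9 and 39.9 CPM in WT, and cerebellar granule neurons 89.5 ± 16.3 CPM. Inside the oligodendrocyte lineage the committed precursors (145 ± 18.6 CPM) were above OPCs (79.2 ± 19.9 CPM) and oligodendrocytes (63.8 ± 8.10 CPM) in every library. By mean level, spiny neurons had the lowest Gad1 and the highest Abat of the 4 inhibitory classes, and olfactory-type neurons the lowest Abat.

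The likeness of each gene to others was measured by Pearson correlation of log2(CPM + 1) over the 19 named classes, among 8572 genes with at least 50 CPM in some class. It is given as a description, since the classes share libraries and differ in depth. Gad1 was most like Gm14204 (0.90), Slc32a1 (0.88) and Klhl1 (0.86), Gad2 like Gm14204 (0.82), Gad1 (0.82) and Slco5a1 (0.77), and Slc32a1 like Gad1 (0.88), Gm14204 (0.83) and 4933413L06Rik (0.82). Gm14204 (chr2:158595472-158610723) ends 43 bases before Slc32a1 and is read in the opposite direction, the arrangement shown in the promoter window. Slc6a5 was most like Pax2 (0.89), a paired-box factor of inhibitory interneurons in cerebellum and hindbrain, then Gm12198 (0.86) and the AP-2 factor Tfap2a (0.83). The named classes leave out cluster 1, which held 64.4% of the Slc6a5 UMIs. Pax2 is also on the marker list used to name cerebellar inhibitory interneurons, the named class highest for Slc6a5. Slc6a11 was most like Gpam (0.90), Camk2g (0.87) and Gm13872 (0.86), and Slc6a9 like Elmod3 (0.84), 9430041J12Rik (0.82) and Gm26594 (0.82). Slc6a13 was most like the organic anion transporter gene Slc22a6 (0.94), Prdm6 (0.92) and the aldehyde oxidase gene Aox3 (0.92), and Abat like Dexi (0.75), Sycp3 (0.74) and Pde9a (0.73).

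None of the 8 genes passed the test between genotypes in any class. UMI sums were compared with edgeR's quasi-likelihood test in all nuclei, in inhibitory neurons as a sum (2215 nuclei), in 11 named classes and in cluster 1, 65 tests of a gene in a unit. Of these, 0 had a Benjamini-Hochberg adjusted p under 0.05, 6 had an unadjusted p under 0.05, and the smallest adjusted p was 0.513. DESeq2 called 0 as well, with 0 unadjusted p under 0.05, and gave no adjusted p for 2 of the 65. Over all genes tested edgeR called 0% in all nuclei, inhibitory neurons, GABAergic interneurons, cerebellar granule neurons, cerebellar inhibitory interneurons, committed precursors, fibroblasts and cluster 1. It called 0.1% in astrocytes, 0.0843% in OPCs, 0.046% in striatal spiny neurons, 0.0437% in oligodendrocytes, 0.0131% in olfactory-type neurons and 0.00902% in glutamatergic forebrain neurons. A member that passed the filter on low counts through only 1 genotype would have had to differ, so the counts of members that follow are descriptions. Whether the 2 libraries of a group come from separate animals is not stated, and each p measures only the spread between libraries.

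In inhibitory neurons the GABA genes stayed within the spread of the libraries. Gad1 measured 305 and 236 CPM in KO libraries and 276 and 233 CPM in WT libraries (log2 change 0.08, 95% interval -0.28 to 0.44, edgeR adjusted p = 0.997). Gad2 measured 304 and 223 CPM in KO and 253 and 252 CPM in WT (log2 change 0.04, interval -0.32 to 0.41, edgeR adjusted p = 0.997). Slc32a1 measured 45.6 and 34.1 CPM in KO and 43.5 and 29.8 CPM in WT (log2 change 0.15, interval -0.40 to 0.70). In each of these genes KO replicate 1 was above KO replicate 2 and the groups overlapped. GABAergic interneurons, the class highest for Gad2 and Slc32a1, were 10.7% and 7.97% of inhibitory neurons in KO and 13.9% and 18.5% in WT, without overlap, and the part of this makeup in the values was not tested. The intervals for Gad1 and Gad2 leave out changes beyond 0.44 on the log2 scale in either direction, and that of Slc6a5 (log2 change 0.03, interval -0.98 to 1.05, from 52 UMIs) does not.

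The 6 differences with an unadjusted p under 0.05 were spread over 4 units. Slc6a5 in all nuclei measured 6.79 and 6.20 CPM in KO libraries and 4.31 and 4.10 CPM in WT libraries, with no overlap (log2 change 0.60 ± 0.25 SE, edgeR adjusted p = 0.823). Cluster 1, which holds most Slc6a5 UMIs, was 12.7% and 13.6% of KO nuclei and 8.09% and 8.75% of WT nuclei, and its part in this result was not tested. Within cluster 1 Slc6a5 measured 18.8 and 17.8 CPM in KO and 13.5 and 14.5 CPM in WT (log2 change 0.36 ± 0.26 SE, edgeR adjusted p = 0.999). The makeup of cluster 1 also differed by library: sub-cluster 4, with Slc6a5 at 4.79 CPM, held 116 and 38 nuclei in KO and 31 and 19 nuclei in WT, and its part was not tested. In a sum over all nuclei, fewer nuclei of a type and less RNA per nucleus cannot be told apart.

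Abat in all nuclei measured 136 and 142 CPM in KO and 122 and 107 CPM in WT (log2 change 0.26 ± 0.11 SE, edgeR adjusted p = 0.814). Over units, the Abat log2 change was above 0 in 12 of 14, from -0.15 in OPCs to 0.42 in glutamatergic forebrain neurons. Of all genes tested, 48.1% to 51.3% were above 0 per unit. For Abat both KO libraries lay above both WT libraries in 8 of 14 units, against 15.1% to 21.6% of all genes tested per unit. They lay below in 0 of 14. The share of all genes below was 13.7% to 19% in astrocytes, cerebellar granule, glutamatergic forebrain and olfactory-type neurons and cluster 1. It was not counted in the other units. The units are not independent, since every unit comes from the same 4 libraries. In addition, all nuclei and inhibitory neurons are sums that hold other units.

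Slc6a11 in astrocytes, with the levels given above, had both KO libraries above both WT libraries (log2 change 0.36 ± 0.16 SE, edgeR adjusted p = 0.610). Without WT replicate 2, the lowest library, the log2 change was 0.18, without KO replicate 1, the highest, it was 0.22, and without WT replicate 1 it was 0.58. Cluster 13, the cluster with more Slc6a11, was 58.5% and 53.5% of astrocytes in KO and 45.3% and 48.3% in WT, and its part in this result was not tested. Slc6a9 in the same astrocytes did not lean that way (log2 change -0.08, interval -0.54 to 0.38).

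Gad2 in astrocytes measured 19.1 and 11.6 CPM in KO (14 and 8 UMIs) and 31.5 and 29.5 CPM in WT (29 and 41 UMIs). Its log2 change was -0.99 ± 0.37 SE (edgeR adjusted p = 0.513). Microglia, taken as a background from RNA free of nuclei, measured 23.8 and 23.6 CPM in KO (3 and 4 UMIs) and 15.7 and 56.0 CPM in WT (2 and 14 UMIs). This background therefore rests on few UMIs. The part of free RNA in the astrocyte values was not tested. In astrocytes KO replicate 2, at 11.6 CPM, lay below every microglia library. The difference of the Gad2 change in astrocytes from that in inhibitory neurons was -1.03 on the log2 scale (edgeR interaction adjusted p = 0.597). In that interaction 0 of 6 members tested were called, against 0.0753% of all genes, and in the interaction of inhibitory with glutamatergic forebrain neurons 0 of 7, against 0.0256% of all genes. Slc6a9 in cerebellar granule neurons measured 3.41 and 2.83 CPM in KO and 6.71 and 6.97 CPM in WT, from 53 UMIs (log2 change -1.11 ± 0.49 SE, edgeR adjusted p = 0.780). After thinning, 0.475% of granule neurons had an Slc6a9 UMI, against 0.339% of microglia (interval 0.0086 to 1.87%), so the gene lay near this background. The part of free RNA in the granule neuron values was not tested. Gad1 in OPCs, given above, had a log2 change of 0.79 ± 0.35 SE (edgeR adjusted p = 0.802), which was 0.21 without KO replicate 1 and 1.24 without KO replicate 2.

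Groups that did not overlap were counted beside the same share over all genes tested in the unit. Of the 65 tests, 21 had both KO libraries above both WT libraries, 6 had them below and 38 overlapped. In all nuclei 3 of 8 genes lay above (18.6% of all genes tested), in inhibitory neurons 1 of 7 (16.9%), in olfactory-type neurons 1 of 5 (17.9%), in spiny neurons 3 of 5 (21.6%), in GABAergic interneurons 0 of 5 (21%) and in cerebellar inhibitory interneurons 2 of 3 (20.8%). In cluster 1 it was 2 of 7 (16.1%), in glutamatergic forebrain neurons 2 of 5 (20.3%) and in cerebellar granule neurons 0 of 6 (15.5%). Among glia and fibroblasts it was 3 of 5 in astrocytes (19.5%), 2 of 2 in oligodendrocytes (20.6%), 1 of 3 in OPCs (17.7%), 0 of 1 in committed precursors (17.4%) and 1 of 3 in fibroblasts (15.1%). KO libraries lay below in 1 of 5 genes in astrocytes (17.5% of all genes), in 2 of 6 in cerebellar granule neurons (19%), in 1 of 7 in cluster 1 (15.9%), in 1 of 5 in glutamatergic forebrain neurons (13.7%) and in 1 of 5 in olfactory-type neurons (14.2%).

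**Figure D5:**
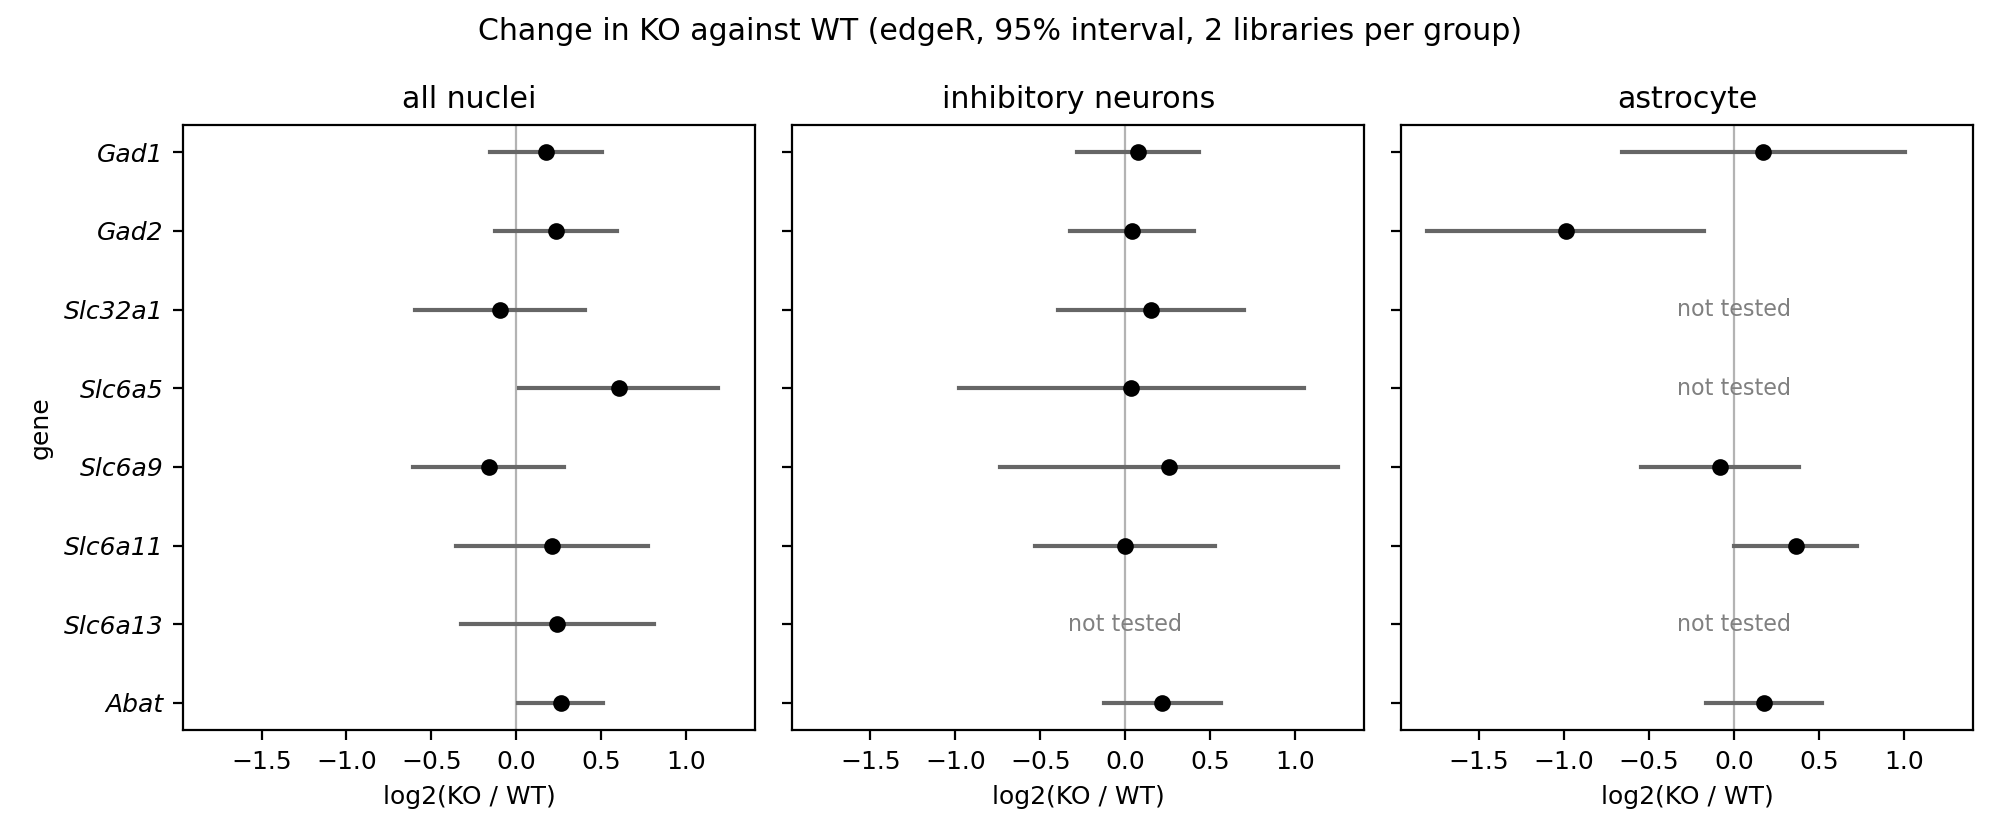
Log2 change of each gene (y axis) in KO against WT with its 95% interval from edgeR (x axis), in all nuclei, inhibitory neurons and astrocytes; genes that missed the filter on low counts are marked as not tested. Intervals of Gad1 and Gad2 in inhibitory neurons are centred near 0. Gad2 in astrocytes lies farthest from 0, at -0.99, from 92 UMIs and with an edgeR adjusted p of 0.513.

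Other genes of the pathway gave 0 calls in every unit for 4 lists. In inhibitory neurons 6 of 15 fate factors of GABAergic neurons were tested, 5 with a log2 change above 0 and a median of 0.39, against a median of -0.0042 over all genes. Their smallest p were for Sp9 (log2 change 0.92 ± 0.27 SE, edgeR adjusted p = 0.997), a factor of striatal and olfactory lineages, and for Pax2 (0.92 ± 0.27 SE, adjusted p = 0.997). The share of inhibitory neurons in the olfactory-type cluster was 48.9% and 44.4% in KO and 45.5% and 38.4% in WT, with overlap, and its part in these values was not tested. Of 11 genes of GABA turnover and uptake 6 were tested there, with a median of -0.03, among them the succinic semialdehyde dehydrogenase gene Aldh5a1 (-0.34 ± 0.33 SE), the glutamine synthetase gene Glul (-0.39 ± 0.42 SE) and the glutamine carrier gene Slc38a1 (0.05 ± 0.15 SE). Of 9 glycine turnover genes 3 were tested, Dld (-0.26 ± 0.25 SE), Gldc (0.09 ± 0.25 SE) and Amt (0.07 ± 0.40 SE), all parts of the glycine cleavage system. Of 9 genes of the inhibitory postsynapse 8 were tested, with a median of -0.05, the smallest p being for the GABA-B receptor gene Gabbr2 (-0.18 ± 0.14 SE), the scaffold gene Gphn (-0.10 ± 0.13 SE) and Glra3 (-0.19 ± 0.43 SE).

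In astrocytes the smallest p of these lists was for Gabbr2, at a log2 change of 0.52 ± 0.16 SE (edgeR adjusted p = 0.429), beside Gphn (0.09 ± 0.12 SE), and 3 of 6 tested genes of the postsynapse list were above 0. Among 9 tested genes of GABA turnover, 5 were above 0 with a median of 0.10, including Slc38a1 (0.30 ± 0.20 SE). Among 5 tested genes of glycine turnover the serine synthesis genes went apart, Phgdh at -0.69 ± 0.36 SE and Psat1 at 0.76 ± 0.47 SE, with Dld at 0.69 ± 0.37 SE. The median over all genes tested in astrocytes was -0.01.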

How the data were processed

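Nuclei of 4 libraries were profiled by droplet sequencing (10x Genomics 3′ chemistry, per the labels' protocols). The authors deposited counts of UMIs per gene and barcode, made with Cell Ranger 4.0.0 on GRCm38, per the submitters' processing notes, which also name Seurat 3.2.3; whether intronic or antisense reads were counted is not given in the sources used here. Nuclei had to reach 500 UMIs and stay below 5% of UMIs from mitochondrial genes, and the highest Scrublet scores were removed at 0.8% per 1000 barcodes (96, 95, 117 and 339 nuclei of KO replicates 1 and 2 and WT replicates 1 and 2), because the automatic threshold marked 0 to 3 per library. Nuclei were clustered with scanpy 1.11.5 into 27 clusters (2000 variable genes ranked over the libraries, 30 components, 15 neighbours, Leiden resolution 1). The 8 genes, Ago2, mitochondrial genes and sex-linked genes such as Xist were left out of the clustering. A cluster took a class name from listed markers of which at least 3 were detected in 10% of its nuclei at 2-fold or more. Since names were rebuilt here, they may differ from the authors' own. Thinned shares come from 1000 UMIs per nucleus, and 226, 278, 347 and 250 shallower nuclei were left out.

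UMIs were summed per library and class and tested with edgeR 4.0.16 (filterByExpr, TMM, quasi-likelihood, Benjamini-Hochberg over all genes of a unit, threshold 0.05) in classes with at least 20 nuclei in every library. The test was also run on counts simulated from its own fitted spread. Such a run cannot show how the test behaves with the real spread between libraries, and its outcome is not reported here. Named genes were the 8 members, for each the 3 genes of highest likeness, and for each pathway list the 3 of smallest p in inhibitory neurons and in astrocytes, of which some are not reported here. The members, lists and tests were chosen with earlier results of these data known. Alternatives were DESeq2 1.42.0, its size factors, no filter, a replicate block, other clusterings and filters, and leaving out each library. Promoter sequences are from RefSeq, gene positions from GENCODE, both on GRCm38.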

Additional observations from a re-analysis of the deposited data

How the results depend on the processing

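Across all alternatives run, 0 of the 8 genes was called between KO and WT in any unit; the smallest edgeR adjusted p by setting lay between 0.0717 (Gad1 in oligodendrocyte precursors without KO replicate 2) and 0.840 (without WT replicate 2), and with DESeq2 it was 0.9995. Some log2 changes near 0 turned sign under some setting, and the cause was not tested. In inhibitory neurons Gad1 was -0.011 without a mitochondrial maximum, and Slc6a5 was -0.019 at Leiden resolution 2, -0.34 without a mitochondrial maximum and -0.059 with doublets kept. With 1 library left out at a time, the log2 change in inhibitory neurons ranged for Gad1 from -0.11 to 0.24, for Gad2 from -0.18 to 0.24, for Slc32a1 from -0.12 to 0.38 and for Slc6a5 from -0.12 to 0.36. For Slc6a9 in astrocytes it ranged from -0.23 to 0.068, and for Slc6a13 in fibroblasts from -0.35 to 0.41. Shares of nuclei with a UMI depend on depth: without thinning they were 63.7% for Gad1 and 8.42% for Slc6a5 in cerebellar inhibitory interneurons, 68.3% for Gad2 and 23.0% for Slc32a1 in GABAergic interneurons, 15.1% for Slc6a9 and 60.2% for Slc6a11 in astrocytes, 59.1% for Slc6a13 in fibroblasts and 66.4% for Abat in spiny neurons. The sub-clusters of cluster 1, its own genotype test and the alternatives of the joint counts were chosen after seeing the data. The deviations of same-numbered KO and WT libraries had a correlation of -0.0803 in all nuclei and -0.129 to 0.370 over units, highest in endothelial cells. With 2 libraries per group this check cannot decide whether the numbers pair them. With the replicate block 0 members were called, 4 had an unadjusted p under 0.05 and the smallest edgeR adjusted p was 0.640. Over all genes, calls per unit were 0 to 9 as reported, 0 to 31 with DESeq2, 2 to 132 without the filter and 0 to 95 with the replicate block. They were 0 to 163, 0 to 372, 0 to 25 and 0 to 72 without KO replicate 1, KO replicate 2, WT replicate 1 and WT replicate 2.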
